A study of Rattus norvegicus with 12 samples.

Results

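The effect of neonatal hypoxic-ischaemic injury on gene expression was measured in 6 pups that received only saline, 3 Rice + saline pups against 3 Control + saline pups, out of 12 arrays in the series. Members were taken by sample title, with 1 single-colour Agilent whole-genome rat array per pup and 3 pups per group. All were Wistar rats that entered the study at 7 days of age, and the labels give their age as 2 weeks. Rice + saline pups had the left carotid artery cut between ligatures under ether, recovered for 1 to 2 h and breathed 8% oxygen for 1 h in a chamber at 33 °C. They then received 100 µl of saline into the peritoneum, repeated after 30 min. Control + saline pups had no hypoxic-ischaemic insult and received 100 µl of saline. Per the labels, the cortex on the side of the insult was taken, or the same side in controls. The ligation, ether, hypoxia, chamber and second injection differed together between the groups and cannot be told apart. The Rice + saline arrays shared 1 slide and the Control + saline arrays another, and within these 6 arrays the slide cannot be told apart from the injury. The other 6 arrays, from pups given MCI-186 (edaravone, a free radical scavenger), form a second injury comparison on another pair of slides.

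In the Rice model, loss of 1 carotid artery followed by low oxygen leaves the hemisphere on the ligated side short of both oxygen and glucose. Neurons, which depend on oxidative phosphorylation to maintain ion gradients, are the first cells to fail, and microglia and astrocytes then react, clear debris and form a scar. Such tissue can hold dying, surviving, dividing and immigrant cells, and in a bulk extract fewer cells of a type and less RNA per cell cannot be told apart.

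The arrays held 43379 spots that were not controls, of which 68.3% to 72.2% were well above background, and the 75th percentile signal lay between 920 and 1138. Signals are given as log2 of the signal over that percentile of the same array. Arrays within a group correlated at 0.986 or more, and arrays of different groups at 0.929 to 0.962. Neuronal genes were detected in both groups. All 10 neuron markers on the array, among them the glutamatergic gene Slc17a7 and the GABA-synthesising gene Gad1, were well above background. Their summed signal was 41.8 to 69.3 times the 75th percentile in Rice + saline pups and 77.1 to 86.2 times in controls. The 10 striatal and 6 of 7 hippocampal and thalamic markers were also well above background, so detection does not place the tissue in cortex. Striatal signal summed to 6.31 to 9.21 times in Rice + saline pups and 10.9 to 11.9 times in controls. For the hippocampal and thalamic markers it was 17.0 to 18.3 times against 10.9 to 12.7 times. The share of each region in the dissected tissue was not tested. The summed signal of 13 microglia and macrophage markers was 261 to 372 times in Rice + saline pups and 35.1 to 44.8 times in controls. That of 11 meningeal and fibroblast markers was 128 to 193 times against 64.5 to 67.1 times. For 9 oligodendrocyte markers it was 75.9 to 128 times against 120 to 152 times. For 9 genes listed as red blood cell markers it was 196 to 371 times against 325 to 618 times. The symbol pattern of that list also takes in Hbegf, a growth factor gene. The part of these shifts in the changes of other genes was not tested.

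The injury moved a large share of the measured genes, many by small steps, and most of the large steps were upward. With limma and an adjusted threshold of 0.05, 5131 of 9240 named genes changed (55.5%), 2303 higher (24.9%) and 2828 lower (30.6%) in Rice + saline than in Control + saline pups. Among the called genes 38.8% changed by less than 1.5-fold. At least 2-fold, 1245 genes were higher (13.5%) and 419 lower (4.53%), and at least 4-fold 505 were higher and 16 lower. At least 16-fold, 89 genes were higher and 0 lower. Without Rice + saline pup 3 the number of genes at least 2-fold lower was 232. The 3 values of one group lay wholly outside the 3 of the other for 5954 genes (64.4%). For 874 genes the 95% interval of the log2 change lay within 0.32 of 0, and the median change over all named genes was -0.09. A gene was tested if it was well above background on all 3 arrays of either group. One that passed through a single group had to differ in detection, which by itself favours a call. In a separate fit limited to probes well above background on all 6 arrays, 2029 of 8759 genes rose and 2776 fell.

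The share of rises and falls varied with signal level. Genes were ordered by their mean signal in the Control + MCI-186 arrays. These arrays add to the estimate of spread and to the choice of a gene's probe, but not otherwise to the saline log2 change. Probe signal depends on the probe as well as on the RNA, so the order is not one of transcript number. Some dim genes passed the filter through the injured group alone, which by itself adds rises among them. In the dimmest quintile 40.6% of 1848 genes were called higher and 13.9% lower in Rice + saline pups. In the brightest quintile 10.3% were called higher and 51.8% lower. The median change was 0.27 in the dimmest quintile, -0.09 in the middle one and -0.30 in the brightest. When only the 8627 genes well above background on all 3 Control + MCI-186 arrays were ordered, a restriction chosen after seeing the data, 32.5% rose and 17.4% fell in the dimmest quintile and 10.3% rose and 52.4% fell in the brightest. The 12 called genes of highest signal in Control + saline pups were all lower in Rice + saline pups, a description only, since choosing genes by that signal favours falls. They include the cytochrome oxidase subunit Cox6a1, which fell by 0.58 ± 0.11, the neuronal chemokine Cx3cl1, which fell by 0.86 ± 0.20, and the autophagy adaptor Gabarapl1, which fell by 0.67 ± 0.11. Here and below ± is limma's standard error, with 3 pups per group.

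**Figure D1:**
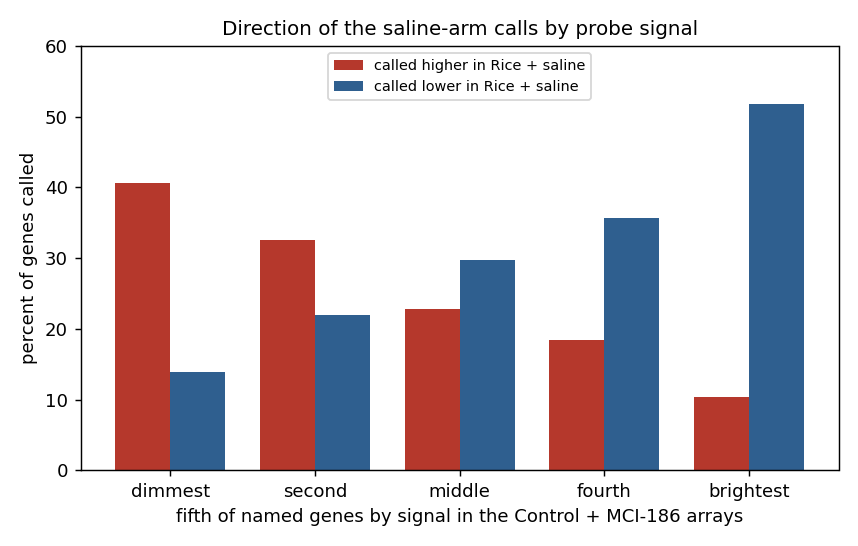
Percent of named genes called higher (red) or lower (blue) in Rice + saline than in Control + saline pups, by quintile of the genes' mean signal in the separate Control + MCI-186 arrays (1848 genes per quintile). Calls higher fell from 40.6% of the dimmest to 10.3% of the brightest quintile while calls lower went the other way, 13.9% to 51.8%.

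The 12 largest rises among genes well above background on all 6 arrays ran from 5.59 for Oas1i to 6.84 for C3. Complement C3 had log2 signals of 5.05, 5.49 and 5.77 in Rice + saline pups, against -1.08, -1.30 and -1.84 in Control + saline pups. Pla2g7, which encodes the plasma enzyme that hydrolyses platelet-activating factor, had 2.54, 3.16 and 3.71 in Rice + saline pups, against -3.47, -3.15 and -3.20 in Control + saline pups. Gpnmb, a glycoprotein of lipid-laden macrophages, had 4.23, 4.06 and 4.71 in Rice + saline pups, against -1.38, -1.36 and -1.17 in Control + saline pups. In each of these genes all injured pups stood far above all controls, and the changes were 6.84 ± 0.30, 6.41 ± 0.30 and 5.64 ± 0.26 on the log2 scale (limma adjusted p = 8.07e-07, 1.17e-06 and 8.07e-07). The interferon regulatory factor Irf7 rose by 5.78 ± 0.36, and the 2',5'-oligoadenylate synthetases Oas1a and Oas1i rose by 5.73 ± 0.32 and 5.59 ± 0.37, as near-identical copies whose probes may share signal.

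The promoters of these genes are shown because some of them hold the letters of known response elements. RefSeq promoters of the GRCr8 assembly, 250 bases before to 50 after the start, were matched to 7545 of the 9240 tested genes. GAAA followed after any 2 bases by GAAA again (TTTC repeated in the same way on the other strand), the core of the interferon-stimulated response element, stood in 46 of 383 promoters of genes that rose at least 4-fold, in 3.8% of 314 promoters of genes that fell at least 2-fold, in 3.1% of all tested promoters and in 3.8% of all 27457 in the table. TGACTCA, the AP-1 element, stood in 8.4%, 3.2%, 3.8% and 4.5% of the same sets. The cAMP response element TGACGTCA stood in 1.0%, 3.8%, 3.0% and 1.9%. TCACNCCAC stood in 2.3%, 1.0%, 1.1% and 1.1%, and TTCCNGGAA in 1.8%, 1.0%, 1.2% and 1.2%. Both strands were searched, a match says only that the letters occur, and these shares carry no test. The 250 bases before the start are printed 5′ to 3′ for the 3 largest rises with each of the first 2 motifs in that stretch, among genes well above background on all 6 arrays, with the motif in capitals.
Irf7, chr1:205800024-205800273, minus strand: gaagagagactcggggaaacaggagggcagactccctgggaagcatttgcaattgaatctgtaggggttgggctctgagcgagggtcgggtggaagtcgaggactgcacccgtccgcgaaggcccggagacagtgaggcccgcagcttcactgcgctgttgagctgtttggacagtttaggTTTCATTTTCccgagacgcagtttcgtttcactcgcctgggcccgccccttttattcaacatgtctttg
Oas1a, chr12:41330216-41330465, plus strand: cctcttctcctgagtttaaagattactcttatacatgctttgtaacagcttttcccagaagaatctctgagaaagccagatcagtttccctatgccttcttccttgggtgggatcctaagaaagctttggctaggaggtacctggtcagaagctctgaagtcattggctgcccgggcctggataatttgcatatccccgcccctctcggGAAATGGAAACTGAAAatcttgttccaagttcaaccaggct
Oas1i, chr12:41284976-41285225, plus strand: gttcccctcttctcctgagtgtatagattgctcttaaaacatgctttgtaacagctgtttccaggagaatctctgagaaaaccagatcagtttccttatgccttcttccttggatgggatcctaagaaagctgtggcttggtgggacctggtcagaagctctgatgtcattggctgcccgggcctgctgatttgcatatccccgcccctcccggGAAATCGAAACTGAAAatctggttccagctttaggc
Pla2g7, chr9:24901748-24901997, minus strand: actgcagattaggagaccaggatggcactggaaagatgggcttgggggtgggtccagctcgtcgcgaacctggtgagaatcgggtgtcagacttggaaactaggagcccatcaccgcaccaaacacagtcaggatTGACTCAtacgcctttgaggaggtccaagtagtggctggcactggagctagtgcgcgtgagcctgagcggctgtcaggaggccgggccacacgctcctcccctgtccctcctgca
Gpnmb, chr4:79340878-79341127, plus strand: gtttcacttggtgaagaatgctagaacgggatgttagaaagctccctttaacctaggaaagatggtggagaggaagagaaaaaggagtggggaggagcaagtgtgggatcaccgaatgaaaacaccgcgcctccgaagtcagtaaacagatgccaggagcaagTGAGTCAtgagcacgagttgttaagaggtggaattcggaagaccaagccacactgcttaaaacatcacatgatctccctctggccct
Cd68, chr10:54882442-54882691, minus strand: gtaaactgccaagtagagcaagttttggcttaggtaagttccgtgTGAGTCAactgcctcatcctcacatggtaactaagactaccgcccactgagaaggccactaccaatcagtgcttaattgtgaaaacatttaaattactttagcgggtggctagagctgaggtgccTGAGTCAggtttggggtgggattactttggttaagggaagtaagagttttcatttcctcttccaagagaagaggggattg
The GAAA repeat letters of Irf7 lie on the other strand and begin 69 bases before the start. Oas1a holds 2 overlapping copies that begin 41 and 35 bases before the start, and Oas1i 2 that begin 36 and 30 bases before it. In the second trio, TGACTCA stands 115 bases before the start of Pla2g7, 87 before that of Gpnmb and 80 and 205 before that of Cd68, the last 3 read on the other strand (TGAGTCA as printed). Cd68 encodes a lysosomal protein of phagocytes and rose by 5.42 ± 0.28.

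The largest falls were smaller than the largest rises. The serine protease gene Prss22 had log2 signals of -2.95, -3.26 and -3.96 in Rice + saline pups, against -0.36, 0.36 and 0.25 in Control + saline pups. It fell by 3.47 ± 0.42 (limma adjusted p = 0.000159). Trim54, a muscle ring finger protein of microtubules, fell by 2.36 ± 0.28, and the fast-muscle troponin C gene Tnnc2 fell by 2.13 ± 0.28. Cox6a2, the muscle isoform of cytochrome c oxidase subunit 6A, had signals of -1.09, -0.84 and -1.48 in Rice + saline pups, against 0.97, 0.83 and 0.77 in Control + saline pups. The groups did not overlap in any of these 4 genes. The calcium-binding copine gene Cpne9 fell by 2.28 ± 0.37, the vesicle calcium sensor Syt2 fell by 2.12 ± 0.44 and the Wnt ligand Wnt10a fell by 2.08 ± 0.31.

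Genes of mitochondrial respiration fell together, by a little, and in every injured pup alike. All 31 subunits of respiratory complex I fell, as did 34 of 36 tested subunits of complexes II to V, with 0 higher in either set. The medians were -0.53 and -0.57, against -0.09 over all named genes, and the range over complex I was only -0.80 to -0.29. Ndufs3, a core subunit of the iron-sulphur arm of complex I, had log2 signals of 3.93, 3.79 and 3.90 in Rice + saline pups, against 4.67, 4.78 and 4.55 in Control + saline pups. Cox7b, a small subunit of cytochrome c oxidase, had 3.73, 3.69 and 3.70 in Rice + saline pups, against 4.40, 4.47 and 4.35 in Control + saline pups. The injured and control values were well apart in both genes, with falls of 0.80 ± 0.09 and 0.70 ± 0.08 (limma adjusted p = 0.000122 and 0.00013). The complex I median differed from the control mean by -0.46, -0.60 and -0.52 in the 3 injured pups. Atp5f1b, the catalytic beta subunit of ATP synthase, fell by 0.69 ± 0.09. Of 63 mitochondrial ribosomal proteins 35 fell and 0 rose, 22 without Control + saline pup 2, with a median of -0.31.

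The pathways that feed the respiratory chain split. Of 21 genes of the citric acid cycle and pyruvate dehydrogenase 14 fell and 2 rose. The cytosolic malate dehydrogenase Mdh1 had log2 signals of 3.52, 3.23 and 3.23 in Rice + saline pups, against 4.27, 4.29 and 4.35 in Control + saline pups. It fell by 0.98 ± 0.12, and Pdhb of pyruvate dehydrogenase fell by 0.89 ± 0.12. Idh2, the NADPH-producing mitochondrial isocitrate dehydrogenase, rose by 0.71 ± 0.15 and Pc, pyruvate carboxylase, a glial enzyme in brain, rose by 0.43 ± 0.11. Of 20 glycolysis genes 13 fell and 5 rose. Aldoc, Pgam1 and Ldhb, the lactate dehydrogenase subunit B, fell by 0.54 ± 0.08, 0.70 ± 0.10 and 0.63 ± 0.10. Hk2, the inducible hexokinase, went the other way, with log2 signals of -3.44, -3.43 and -3.07 in Rice + saline pups, against -4.67, -5.94 and -6.08 in Control + saline pups. All injured pups were above all controls (limma adjusted p = 0.000518), but only 1 of 3 control arrays was well above background for Hk2, so no fold is given. With all 6 arrays required, 2 of 17 glycolysis genes rose and 13 fell. Pfkl, the liver-type phosphofructokinase, rose by 0.89 ± 0.12. In fatty acid oxidation 11 of 26 genes rose and 2 fell, with a median of 0.38. Decr1, the dienoyl-CoA reductase, had 4.11, 4.09 and 4.49 in Rice + saline pups, against 3.09, 3.08 and 2.80 in Control + saline pups. Cpt1a, which carries fatty acids into mitochondria, rose by 0.77 ± 0.13 and the medium-chain dehydrogenase Acadm rose by 0.72 ± 0.13. The coactivator Ppargc1a, which drives mitochondrial biogenesis, fell by 1.18 ± 0.22.

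**Figure D2:**
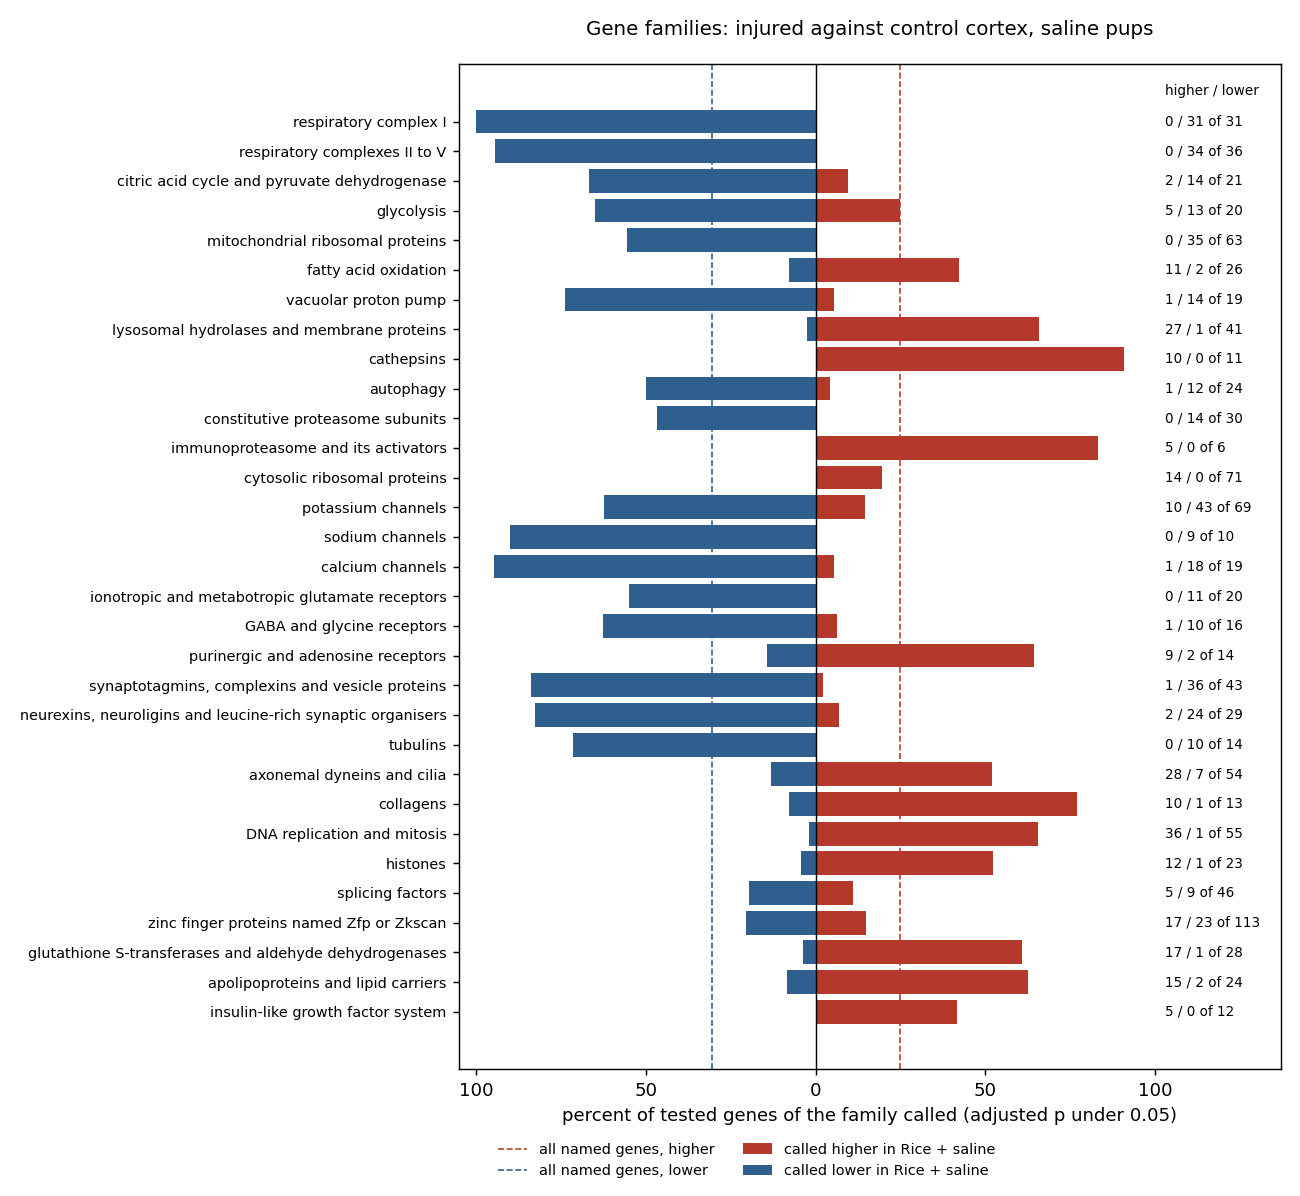
Percent of the tested genes of 31 families called higher (red, to the right) or lower (blue, to the left) in Rice + saline than in Control + saline pups, with the counts at the right and dashed lines at 24.9% and 30.6% for all named genes. Respiratory chain, channel and vesicle families extend far to the left, and lysosomal, replication, cilia and detoxification families to the right.

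Lysosomal enzymes rose while the pump that acidifies lysosomes fell. Of 41 lysosomal hydrolases and membrane proteins 27 rose and 1 fell, median 0.70, and 10 of 11 cathepsins rose. Cathepsin Z, Ctsz, a carboxypeptidase of phagocytes, had log2 signals of 1.77, 1.66 and 2.37 in Rice + saline pups, against -1.59, -1.48 and -1.75 in Control + saline pups. Dnase2, the nuclease that digests engulfed DNA, had 1.11, 1.11 and 1.58 in Rice + saline pups, against -2.00, -1.79 and -1.78 in Control + saline pups. In both genes every injured pup was far above every control, and the rises were 3.54 ± 0.24 and 3.12 ± 0.20 (limma adjusted p = 5.1e-06 and 3.89e-06). Progranulin, Grn, rose by 2.52 ± 0.21 and legumain, Lgmn, rose by 2.05 ± 0.15. In contrast 14 of 19 subunits of the vacuolar proton pump fell and 1 rose. The stalk subunit Atp6v1d had 2.14, 1.86 and 1.77 in Rice + saline pups, against 2.57, 2.67 and 2.77 in Control + saline pups, a fall of 0.75 ± 0.11, and the nucleotide-binding subunit Atp6v1b2, the form found in brain, fell by 0.72 ± 0.13. The exception was the membrane subunit Atp6v0e1, which rose by 0.97 ± 0.19. Autophagy genes were lower in 12 of 24 and higher in 1, with Map1lc3a falling by 0.61 ± 0.10. The 1 that rose was Tfeb, the transcription factor of lysosomal genes, by 0.80 ± 0.15, and its call was lost when all probes of a gene were averaged.

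The 2 forms of the proteasome moved apart. Of 6 immunoproteasome subunits and activators 5 rose, with Psmb9 at 3.05, 3.11 and 3.75 in Rice + saline pups, against -0.58, -0.47 and -0.78 in Control + saline pups. The interferon-induced catalytic subunits Psmb9 and Psmb8 rose by 3.92 ± 0.29 and 3.52 ± 0.28, and the activator subunits Psme1 and Psme2 by 1.98 ± 0.20 and 1.42 ± 0.22. Of 30 constitutive subunits 14 fell and 0 rose, with a median of -0.22 and Psmc5, an ATPase of the cap, falling by 0.41 ± 0.08. That count was 5 without Rice + saline pup 2, 7 without Control + saline pup 1, 4 without Control + saline pup 2, 8 with the replicate number as a block, and 3 under quantile normalization or with the saline arrays alone. Ubiquitin conjugating enzymes were called near the shares over all named genes, with 7 of 24 lower (29.2%) and 4 higher (16.7%), and 4 lower under quantile normalization or 12 with median scaling. Ube2l6, which attaches Isg15 to proteins, rose by 2.63 ± 0.31.

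Many genes of translation changed little. Of 71 cytosolic ribosomal proteins 14 rose and 0 fell, with a median of 0.21 and no change of 2-fold. Rpsa, a protein of the small subunit, had log2 signals of 3.95, 4.06 and 4.19 in Rice + saline pups, against 3.65, 3.66 and 3.66 in Control + saline pups. The call count depended on the scaling, with 49 higher under quantile normalization, 7 when arrays were scaled to their median or the saline arrays were used alone, 5 without Rice + saline pup 3, 9 without Control + saline pup 2 and 8 without Control + saline pup 3. Among 49 genes matched as translation initiation and elongation factors, which include a few kinases and binding proteins of these factors, 16 (32.7%) had a 95% interval within 0.32 of 0 on the log2 scale, against 9.5% of all named genes. The corresponding shares were 30.8% of 26 histone deacetylases, methylases and demethylases, 28.3% of 46 splicing factors, and 6 of 24 aminoacyl-tRNA synthetases. Calls were still made in these families, with 13 translation factors lower (26.5%) and 7 higher (14.3%), and 8 synthetases lower (33.3%) and 1 higher (4.2%). The 13 became 8 without Rice + saline pup 2 or Control + saline pup 2, 6 under quantile normalization and 5 with the saline arrays alone. Eef1a2, the elongation factor of neurons and muscle, fell by 0.89 ± 0.21. The RNA-activated kinase Eif2ak2 rose by 2.39 ± 0.19, and the translation repressor Eif4ebp1 rose by 1.34 ± 0.22. Of the splicing regulators, the neuronal RNA-binding proteins Elavl3 and Elavl4 fell by 0.82 ± 0.10 and 0.83 ± 0.12, and Ptbp1, which represses neuronal exons, rose by 1.14 ± 0.18.

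Genes of electrical excitability fell, with lower family medians than the metabolic families described so far. Of 69 potassium channel genes 43 fell and 10 rose, with a median of -0.85, and 26 fell at least 2-fold. Kcns1, a silent subunit that modifies delayed rectifiers, had log2 signals of -1.57, -1.21 and -1.94 in Rice + saline pups, against 0.43, 1.00 and 0.82 in Control + saline pups. Kcnc1, the fast-spiking channel of interneurons, fell by 1.84 ± 0.25, Kcnj11, the pore of the ATP-sensitive channel, fell by 1.31 ± 0.18 and Kcnk2, the TREK-1 leak channel, fell by 1.22 ± 0.16. The largest opposite change was of Kcnn4, a calcium-activated channel of microglia and lymphocytes, with 0.84, 0.51 and 1.40 in Rice + saline pups, against -3.41, -3.14 and -3.54 in Control + saline pups. It rose by 4.28 ± 0.23 (limma adjusted p = 2.7e-06). Of 10 sodium channel genes 9 fell, with Scn8a, a pore subunit of the axon initial segment, falling by 1.13 ± 0.21. Of 19 calcium channel genes 18 fell and 1 rose, the auxiliary subunit gene Cacng4, by 0.63 ± 0.20. It was well above background on 2 of 3 control arrays, and its rise was not called under normexp background correction, with the saline arrays alone, or without Rice + saline pup 2 or 3 or Control + saline pup 2 or 3. Another auxiliary subunit gene, Cacnb4, fell by 1.21 ± 0.15.

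Many receptors for fast transmitters fell, and most tested receptors for purines rose. Of 20 glutamate receptor genes 11 fell and 0 rose, with Grm8, a presynaptic metabotropic receptor, falling by 0.96 ± 0.15 and the kainate receptor subunit Grik1 by 1.11 ± 0.19. Of 16 GABA and glycine receptor genes 10 fell and 1 rose. Gabrd, the extrasynaptic delta subunit, had log2 signals of 2.50, 2.42 and 1.61 in Rice + saline pups, against 3.81, 3.91 and 3.62 in Control + saline pups. The fall was widest in pup 3 of the injured group. Gabrg1, a subunit that is also found in glia, rose by 0.71 ± 0.16. Of 29 monoamine and cholinergic receptor genes 15 fell, with Adra1d, an alpha-1 adrenoceptor, and the nicotinic subunit Chrnb2 falling by 1.71 ± 0.23 and 1.06 ± 0.15, and 3 rose. Among 14 purinergic and adenosine receptors 9 rose and 2 fell, with a median of 1.03. With a lower bound in place of the change of members detected in 1 group only, the median was 0.71. Entry through Rice + saline alone by itself adds rises. Over the 17 alternatives 7 to 10 rose and 2 to 3 fell, with medians of 0.27 to 1.11. The UDP receptor P2ry6, a trigger of microglial phagocytosis, had 3.20, 2.87 and 3.55 in Rice + saline pups, against 0.72, 0.85 and 0.64 in Control + saline pups. It rose by 2.47 ± 0.20, and the ATP-gated channels P2rx4 and P2rx6 rose by 1.16 ± 0.18 and 2.81 ± 0.40. The adenosine receptor Adora1, which damps transmitter release, fell by 0.71 ± 0.19.

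At the synapse, 36 of 43 vesicle and release genes fell and 1 rose, with a median of -0.92. The active-zone scaffold Rims1 had log2 signals of -1.97, -2.13 and -2.73 in Rice + saline pups, against -0.77, -0.67 and -1.09 in Control + saline pups. Slc32a1, the vesicular GABA transporter, fell by 1.06 ± 0.17, and the widely expressed synaptogyrin Syngr2 rose by 1.21 ± 0.15. Of 29 neurexins, neuroligins and leucine-rich organisers 24 fell, with Nrxn3 falling by 1.19 ± 0.16 and Lgi2 by 1.16 ± 0.14. Lgi4, a relative secreted by glia, rose by 2.02 ± 0.16. Of 18 contactin, slit and netrin genes 11 fell and 0 rose, 7 without Rice + saline pup 3. Of 41 calcium- and lipid-dependent kinases and phospholipases C 24 fell and 10 rose. Camk4, a nuclear kinase of activity-dependent transcription, had 2.23, 2.17 and 1.89 in Rice + saline pups, against 3.57, 3.82 and 3.34 in Control + saline pups. The kinase inhibitor Camk2n1 fell by 1.86 ± 0.27, and the striatum-rich adenylyl cyclase Adcy5 fell by 0.73 ± 0.08. Those that rose included the phospholipase Plcb2 of blood cells, by 2.40 ± 0.23, and the kinase Prkcd, by 1.66 ± 0.16. Among neuropeptides, where 14 of 30 fell, prodynorphin Pdyn and cortistatin Cort fell by 1.59 ± 0.21 and 1.61 ± 0.27. Galanin, Gal, a peptide that neurons make after injury, had 2.31, 3.18 and 4.08 in Rice + saline pups, against 0.23, -0.09 and -0.16 in Control + saline pups. It rose by 3.20 ± 0.49 and was uneven between the injured pups.

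**Figure D3:**
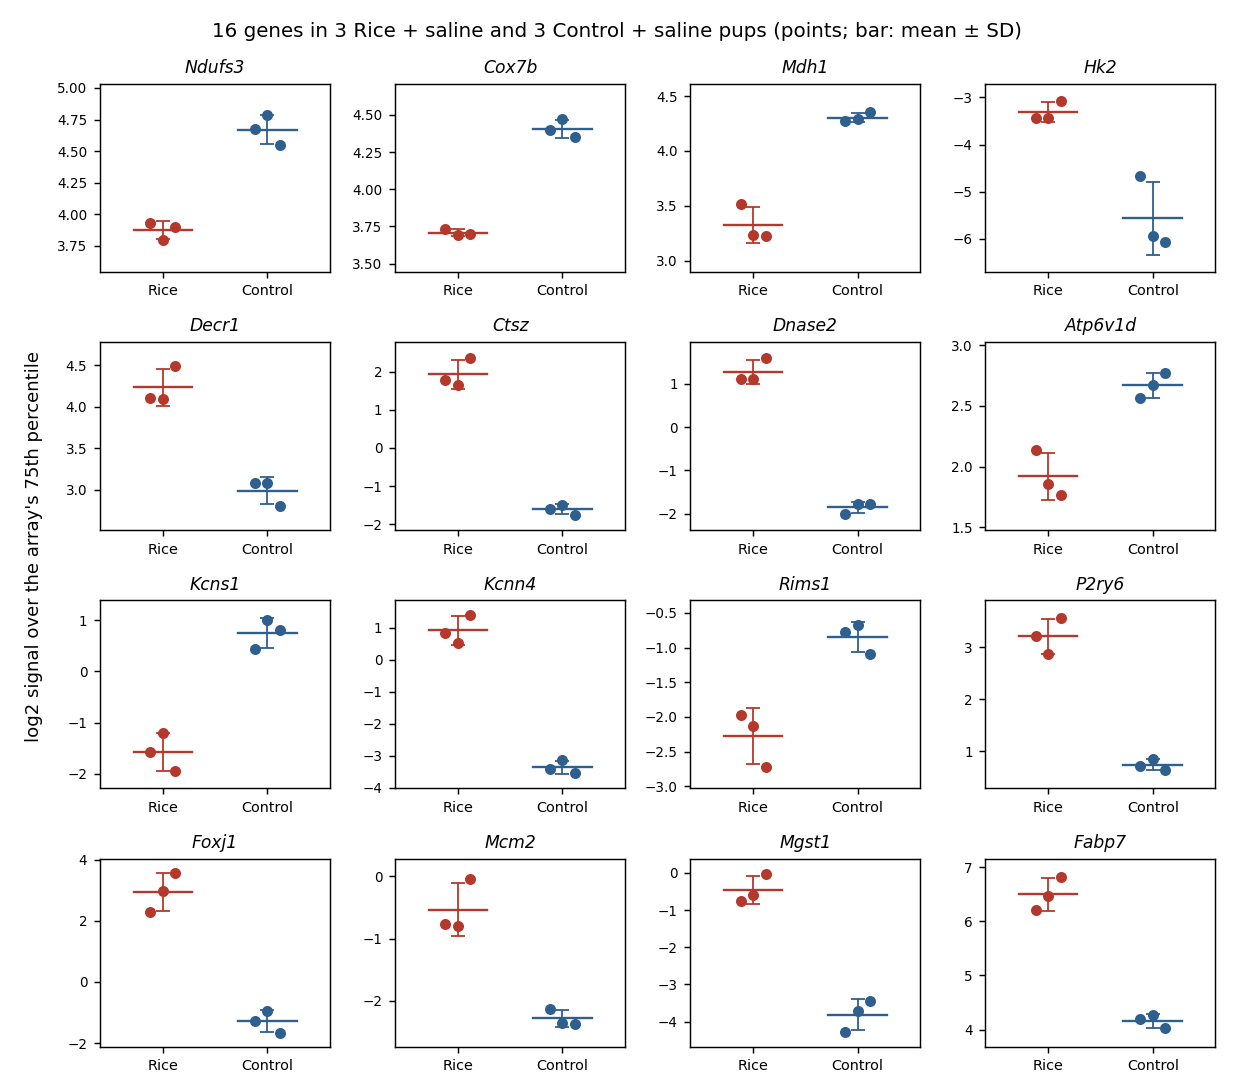
Log2 signal over the array's 75th percentile in each of 3 Rice + saline pups (left) and 3 Control + saline pups (right) for 16 genes, with the mean and SD of each group. The groups do not overlap in any panel, and Hk2 was well above background on 1 of 3 Control + saline arrays, with mean changes from a fall of 2.32 for Kcns1 to a rise of 4.28 for Kcnn4.

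Cytoskeletal genes moved in both directions. Of 14 tubulins 10 fell and 0 rose, with Tuba4a falling by 0.98 ± 0.17, and the neuronal kinesin gene Kif5c fell by 1.10 ± 0.17. Of 23 kinesins 8 rose (34.8%) and 7 fell (30.4%), with Kif2c and Kif22, which act in mitosis, rising by 1.84 ± 0.30 and 1.49 ± 0.25. The haematopoietic guanine exchange factor Vav1 had log2 signals of -0.11, -0.25 and 0.23 in Rice + saline pups, against -3.51, -3.54 and -3.38 in Control + saline pups. Rac2, a blood-cell GTPase that drives the phagocyte oxidase, rose by 3.48 ± 0.22. The long-tailed myosin Myo1f and the actin-capping protein Capg, both of leukocytes, rose by 3.12 ± 0.25 and 3.54 ± 0.26, and the neuronal motor Myo5a fell by 1.10 ± 0.22.

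Genes of motile cilia rose. Of 54 axonemal dynein and cilia genes 28 rose and 7 fell, with 21 rising at least 2-fold. Foxj1, the master regulator of motile cilia, had log2 signals of 2.29, 2.98 and 3.56 in Rice + saline pups, against -1.27, -0.94 and -1.66 in Control + saline pups. The dynein intermediate chains Dnai2 and Dnai1 rose by 3.01 ± 0.33 and 1.26 ± 0.17, and the tektin Tekt3 by 2.43 ± 0.33. The genes that fell were transport genes of all cilia, such as Ift57, by 0.51 ± 0.10, and Ift22, by 0.57 ± 0.11. Family medians in the injured pups were 0.28, 0.68 and 0.86. Of 9 choroid plexus markers on the array 5 were tested and 3 were called higher, and Folr1 and Slc4a5 passed the filter through Rice + saline alone. With all 6 arrays required 2 of 3 were called. Of the rest 3 were well above background on no saline array. Ttr, the defining transthyretin gene of choroid plexus, was well above background on 2 Rice + saline arrays and on 0 Control + saline arrays. Ttr was not part of the summed signal, which covers the 5 tested markers. That sum was 1.55 to 2.93 times the 75th percentile in Rice + saline pups and 0.585 to 0.771 times in controls. Folr1 and Slc4a5 are in it, and their entry through Rice + saline alone by itself adds to the difference. The share of ependyma and choroid plexus in the dissected tissue was not tested. Folr1, the folate receptor of choroid plexus, was at least 23.1-fold higher, a bound because no control was well above background.

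Among matrix genes, of 13 collagens 10 rose and 1 fell, 6 rose without Rice + saline pup 2 and 6 without Control + saline pup 2. Col3a1, a fibrillar collagen of fibroblasts, had log2 signals of 4.23, 5.02 and 4.78 in Rice + saline pups, against 2.39, 2.32 and 2.53 in Control + saline pups. Col1a1 and Col1a2 rose by 1.33 ± 0.22 and 1.33 ± 0.18. Of 29 claudins and junction proteins 10 rose (34.5%) and 7 fell (24.1%). Gja1 and Gjb2, the connexins of astrocytes and meninges, rose by 1.39 ± 0.15 and 1.69 ± 0.18. Cldn5, the claudin of the blood-brain barrier, fell by 0.51 ± 0.09, as did Slco1c1, the thyroxine carrier of brain endothelium, by 1.12 ± 0.13. Over 9 endothelial markers 4 fell and 2 rose, with a summed signal of 41.6 to 42.8 times the 75th percentile in Rice + saline pups and 58.5 to 62.8 times in controls. Of 18 genes of laminins and basement membrane 8 rose (44.4%) and 4 fell (22.2%), with a median of 0.10, and 4 to 8 rose over the alternatives. In the less frequent direction Hapln2, a link protein of the nodes of myelinated axons, fell by 2.09 ± 0.43, and its relative Hapln3 fell by 0.60 ± 0.17.

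Genes of cell division rose. Of 55 genes of DNA replication and mitosis 36 rose and 1, Ccne1, fell, with a median of 0.76 and 25 rising at least 2-fold. The replication helicase subunit Mcm2 had log2 signals of -0.77, -0.80 and -0.04 in Rice + saline pups, against -2.13, -2.36 and -2.37 in Control + saline pups. Mcm10, an initiation factor, rose by 2.14 ± 0.28 and Prc1, which bundles spindle microtubules, rose by 2.15 ± 0.33, each well above background on 2 of 3 control arrays, and the mitotic kinase Aurka rose by 1.02 ± 0.14. Of 23 histone genes 12 rose and 1 fell, 6 rising without Rice + saline pup 3, and histone probes may share signal between near-identical copies. DNA repair genes moved less, with 14 of 44 higher (31.8%) and 4 lower (9.1%), against 24.9% and 30.6% of all named genes. Parp9, an interferon-induced ADP-ribosyltransferase partner, rose by 3.40 ± 0.21, and Ercc6 and Ercc1 of excision repair fell by 0.56 ± 0.09 and 0.50 ± 0.09.

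Most zinc finger genes did not pass, and a few regulators of other families moved far. Of 113 genes named Zfp or Zkscan 17 rose and 23 fell, with a median of -0.01, and 73 did not pass. Id3, an inhibitor of helix-loop-helix factors in astrocytes and endothelium, had log2 signals of 4.62, 5.13 and 5.38 in Rice + saline pups, against 2.43, 2.40 and 2.32 in Control + saline pups. The leukocyte factor Spi1 and the acute-phase factors Cebpb and Cebpd rose by 2.69 ± 0.24, 1.85 ± 0.15 and 2.57 ± 0.21. Pax6 and Sox2, factors of neural stem cells and astrocytes, rose by 1.96 ± 0.21 and 1.42 ± 0.17. Satb1 and Pou3f1, factors of cortical neurons, fell by 1.00 ± 0.20 and 1.05 ± 0.20. Of 28 nuclear receptor genes 11 fell (39.3%) and 5 rose (17.9%), against 30.6% and 24.9% of all named genes. The oestrogen-related receptor Esrra, an activator of respiratory chain genes, fell by 0.69 ± 0.10, and Esrrg was well above background in every control and in no injured pup, at least 1.59-fold lower. Nr1h3, the liver X receptor of macrophages, rose by 1.40 ± 0.20. Of 15 circadian clock genes 7 fell (46.7%) and 2 rose (13.3%), 4 falling without Rice + saline pup 3, with Per2 falling by 0.61 ± 0.12.

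Growth factor systems moved member by member. Igf1, which microglia and interneurons make, had log2 signals of 5.19, 5.21 and 5.40 in Rice + saline pups, against 2.99, 2.96 and 2.73 in Control + saline pups. Its binding protein Igfbp2 rose by 2.67 ± 0.23 and Igf2 rose by 1.31 ± 0.14, with 5 of 12 genes of this system higher and 0 lower. Fgf9, Fgf12 and Fgf13 fell by 1.37 ± 0.18, 0.96 ± 0.17 and 0.75 ± 0.16, while the receptor Fgfr1 rose by 1.45 ± 0.15. Bmp6 rose by 1.85 ± 0.22, the stress-induced Gdf15, well above background on 2 of 3 control arrays, rose by 3.31 ± 0.42, and the BMP antagonist Grem1 fell by 1.27 ± 0.24. Among Wnt genes the receptors Fzd1 and Fzd2 rose by 1.97 ± 0.25 and 1.12 ± 0.15 and Fzd9 fell by 0.95 ± 0.12. Vegfa, the hypoxia-inducible endothelial growth factor, was lower, with -0.48, -0.48 and -0.76 in Rice + saline pups, against 0.36, 0.12 and -0.13 in Control + saline pups. It fell by 0.69 ± 0.14, and the endothelial peptide apelin, Apln, fell by 1.22 ± 0.16, while adrenomedullin, Adm, rose by 1.65 ± 0.22.

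Enzymes of detoxification and lipid carriers rose. Of 28 glutathione S-transferases and aldehyde dehydrogenases 17 rose and 1 fell, with a median of 0.68. The membrane-bound transferase Mgst1 had log2 signals of -0.77, -0.59 and -0.03 in Rice + saline pups, against -4.27, -3.72 and -3.44 in Control + saline pups. Gsta4 and Gstm1 rose by 1.89 ± 0.25 and 1.76 ± 0.19. Of 24 cytochrome P450 genes 14 rose and 9 fell. Cyp7b1, an oxysterol hydroxylase, and Cyp26b1, which degrades retinoic acid, rose by 2.35 ± 0.19 and 2.54 ± 0.28, and the steroid hydroxylase Cyp11b1 fell by 1.86 ± 0.37. The family of apolipoproteins and lipid carriers, whose symbol pattern also takes in an RNA editing enzyme, had 15 of 24 genes higher and 2 lower. Fabp7, the fatty acid carrier of radial glia and astrocytes, had 6.21, 6.46 and 6.81 in Rice + saline pups, against 4.19, 4.27 and 4.02 in Control + saline pups. It rose by 2.33 ± 0.23, the cholesterol-esterifying Lcat rose by 3.06 ± 0.23 and the muscle and neuronal carrier Fabp3 fell by 1.01 ± 0.20. The elongases of very long and long fatty acids Elovl2 and Elovl6 fell by 1.27 ± 0.17 and 0.88 ± 0.15.

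Amino acid carriers were called at near the shares over all named genes, 12 of 39 higher (30.8%) and 12 lower (30.8%), against 24.9% and 30.6%. With all 6 arrays required 8 of 34 were higher. The fructose carrier Slc2a5 of microglia had log2 signals of 2.32, 2.23 and 2.44 in Rice + saline pups, against -0.27, -0.03 and 0.12 in Control + saline pups. Slc7a5, a light chain of a heteromeric amino acid exchanger, rose by 1.22 ± 0.15. The astrocyte glutamate carrier Slc1a2 fell by 0.73 ± 0.13, and the neuronal chloride exporter Slc12a5 fell by 1.05 ± 0.19. In tryptophan breakdown, Qprt, which makes the NAD precursor from quinolinate, rose by 1.48 ± 0.22, and Kmo, the hydroxylase that commits kynurenine to that branch, was at least 4.29-fold higher. Entpd2 and Nt5e, which break down extracellular ATP to adenosine, rose by 1.91 ± 0.15 and 1.79 ± 0.21. Psat1, Phgdh and Mthfd2 of serine and one-carbon synthesis rose by 1.34 ± 0.18, 0.91 ± 0.21 and 0.95 ± 0.14. The intestinal zinc importer Slc39a4 rose by 3.90 ± 0.35.

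Several immune receptor families away from the best known markers rose. All 7 tested Fc receptor genes rose, with a median of 3.29, as did all 6 guanylate-binding and immunity-related GTPases, with a median of 4.19. Fcrl2, an Fc receptor relative, had log2 signals of 3.76, 4.10 and 4.30 in Rice + saline pups, against 0.13, 0.32 and 0.16 in Control + saline pups. Of 26 interleukin receptor genes 17 rose and 2 fell, with Il13ra1 and Il21r rising by 2.21 ± 0.16 and 2.50 ± 0.21. Of 22 TNF ligands and receptors 13 rose and 1 fell. Tnfsf4, the OX40 ligand, and Fas, the death receptor, rose by 2.93 ± 0.20 and 3.33 ± 0.31, and Tnfrsf9 fell by 0.94 ± 0.20. Among galectins Lgals3 rose by 4.09 ± 0.32 and Lgals9 rose by 2.19 ± 0.24, while the keratinocyte galectin Lgals7 fell by 1.60 ± 0.25. Serping1, the inhibitor of complement C1, had 5.89, 6.08 and 6.58 in Rice + saline pups, against 1.95, 1.90 and 1.86 in Control + saline pups, a rise of 4.28 ± 0.26. Stat4, a mediator of interleukin-12 signals that was well above background on 2 of 3 Rice + saline arrays, fell by 1.99 ± 0.48, while Stat2, which carries interferon signals, rose by 2.02 ± 0.20.

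Some genes were detected in only one of the groups. On all 3 Rice + saline arrays and on no Control + saline array, 168 named genes were well above background, and 12 the other way round. For these the fold is a bound. Each array of the group without detection was given a floor, its weakest signal well above background, or the probe's own signal where stronger, and the bound is the brighter group's mean over the mean of these floors on the log2 scale. Coagulation factor X, F10, was at least 74.7-fold higher, the integrin of lymphocyte adhesion Itgal at least 18.4-fold, the costimulatory receptor Cd86 at least 18-fold and Tnfrsf14 at least 18.4-fold. The EF-hand gene Efhb, at least 19.3-fold higher, and C16h10orf53, at least 16.4-fold higher, stood beside them. In the other direction the bounds were small, with C14h1orf146 at least 2.62-fold lower, granzyme C, Gzmc, at least 2.3-fold lower and urate oxidase, Uox, at least 2.06-fold lower. Of 1158 chemosensory receptor genes on the array only 60 passed the filter, of which 4 rose (6.7%) and 17 fell (28.3%). Over all named genes the shares were 24.9% and 30.6%, so the falls were no more frequent here. The number that fell was 26 with no filter and 10 with all 6 arrays required. It was 10 without Rice + saline pup 2 and 11 without Control + saline pup 1 or 2.

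Genes that rose at least 2-fold lay side by side at 8 places in the RefSeq gene order where at least 4 tested neighbours all did so, and no such run was found for genes that fell. Such rises were 13.5% of named genes and such falls 4.53%, which by itself makes runs of rises likelier. Whether the runs exceed that was not tested. The longest run held 8 class I genes on chromosome 20, from RT1-CE16 to RT1-CE1. These are near-identical copies whose probes may share signal. On chromosome 2 a run of 7 S100 calcium-binding proteins (S100a1, S100a16, S100a3, S100a4, S100a6, S100a8 and S100a9) rose by between 1.18 and 5.30. S100a8 was well above background on 1 of 3 Control + saline arrays and passed the filter through Rice + saline alone. Without Rice + saline pup 3 the S100a9 change was 0.87 and not called, which would break that run. Tap2, Psmb8, Tap1, Psmb9 and RT1-DMa of antigen processing rose by 1.49 to 3.92. Irf1, the carnitine carriers Slc22a5 and Slc22a4 and Pdlim4 formed a run on chromosome 10.

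The injured pups differed more from each other than the controls did. The median SD over named genes was 0.174 in Rice + saline pups and 0.128 in Control + saline pups, and 571 genes against 275 had a range of over 2-fold within the group. On the first principal component, which held 86.9% of the variance of the 9207 genes with a value on all 6 arrays, the injured pups stood at 34.6, 44.1 and 66.4 and the controls between -50.8 and -46.3. Pup 3 of the injured group was farthest from the controls for vesicle genes, with a median of -1.31 against -0.65 and -0.84 in the other injured pups. It was farthest for GABA and glycine receptors too, at -1.30 against -0.50 and -0.69. Respiratory complex I did not follow, as given above. The neutrophil markers had medians of 1.10, 0.95 and 3.71, and 5 of 7 tested were called higher, some of which passed the filter through Rice + saline alone. The count was 2 with all 6 arrays required, 2 without the filter, under normexp or with the saline arrays alone, 3 with the replicate block or the higher floor, and 2 without Rice + saline pup 3 or Control + saline pup 1 or 3. S100a9, a neutrophil calcium-binding protein, had log2 signals of -3.62, -4.09 and -1.01 in Rice + saline pups, against -4.68, -4.18 and -5.32 in Control + saline pups. Its call (limma adjusted p = 0.0457) was lost under 8 of 17 alternatives, among them the removal of Rice + saline pup 3, where the change was 0.87. Among other called genes with a wide range in the injured group was the cilia gene Dynlrb2, with -0.89, 0.11 and 1.27 in Rice + saline pups, against -4.22, -4.03 and -4.29 in Control + saline pups.

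**Figure D4:**
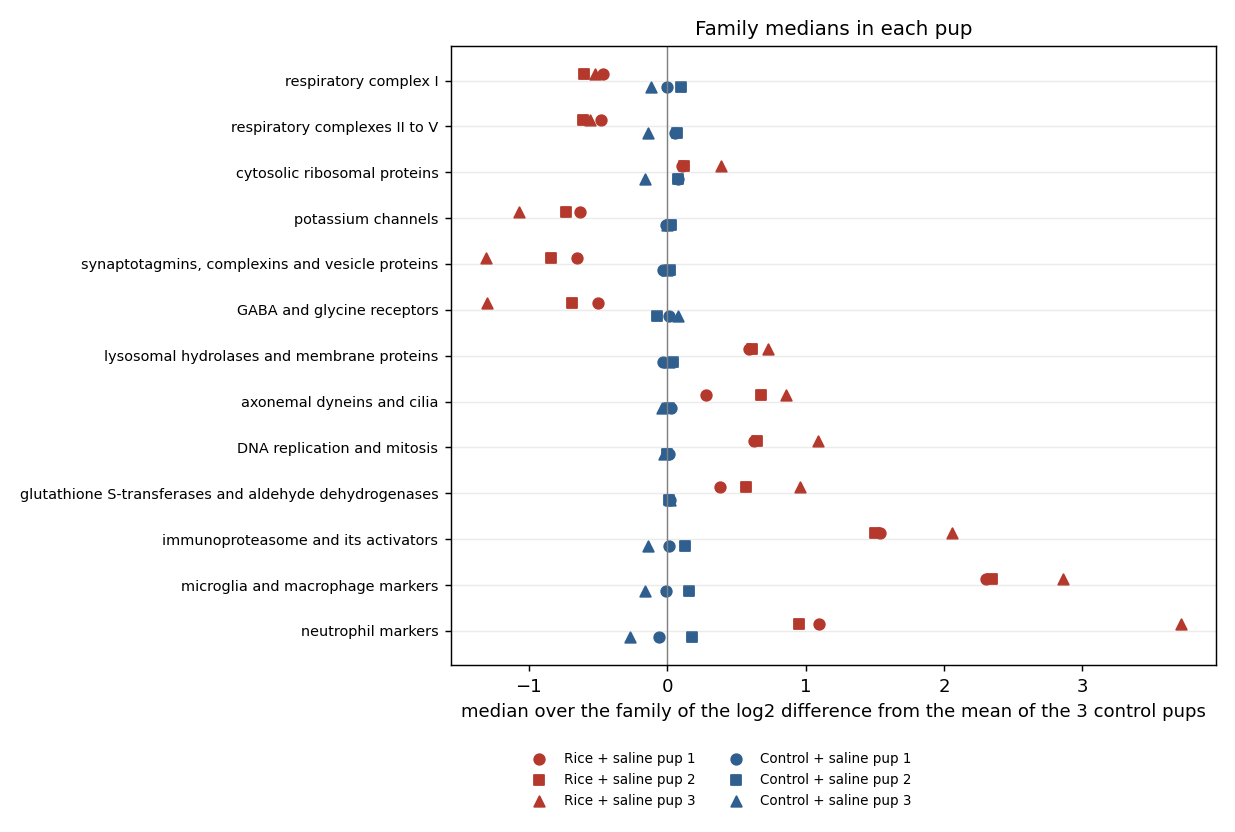
Median over the genes of each of 13 families of the log2 difference from the mean of the 3 Control + saline pups, for each Rice + saline pup (red) and each Control + saline pup (blue). Injured pup 3 (red triangle) lies outermost for every family shown except the respiratory complexes, where the 3 injured pups lie together between -0.61 and -0.46.

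Probes without a gene name gave a similar picture with fewer rises. Of 16444 such probes 7687 passed (46.7%), 2685 higher (16.3%) and 5002 lower (30.4%), and the median change was -0.17. At least 2-fold, 1256 were higher (7.64%) and 755 lower (4.59%), and the groups did not overlap for 8801 (53.5%). The probes of 1 gene mostly went the same way, since of 2170 genes with several probes 10 had probes called in opposite directions.

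The second injury comparison set 3 Rice + MCI-186 pups against 3 Control + MCI-186 pups on other slides. Its log2 changes share no array with those of the first. Both comparisons were tested in the same fit, with a common estimate of spread for each gene. A gene of small spread is thus more easily called in both, and the shared calls are not from independent tests. In the MCI-186 comparison 5275 named genes passed (57.1%), 2354 higher (25.5%) and 2921 lower (31.6%). Of the genes that rose in saline pups 89.4% were also called higher there, and of those that fell 84.5% were also called lower. The opposite call was made for 8 genes. Among 1664 genes called at 2-fold or more in saline pups, 1654 had the same sign. The family medians there were -0.54 for complex I, -0.73 for potassium channels, 0.63 for lysosomal enzymes, 0.80 for replication and mitosis and 0.51 for cilia genes. The test of the difference between the injury effects passed for 2 named genes (0.0216%), while 348 had an unadjusted limma p under 0.05. Among the lists, medians lay far apart for oligodendrocyte markers, at -0.54 in saline pups and -1.87 in MCI-186 pups. They also did for red blood cell markers, the list that takes in Hbegf, at -0.68 and 0.58. No member of either list passed the test of the difference.

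**Figure D5:**
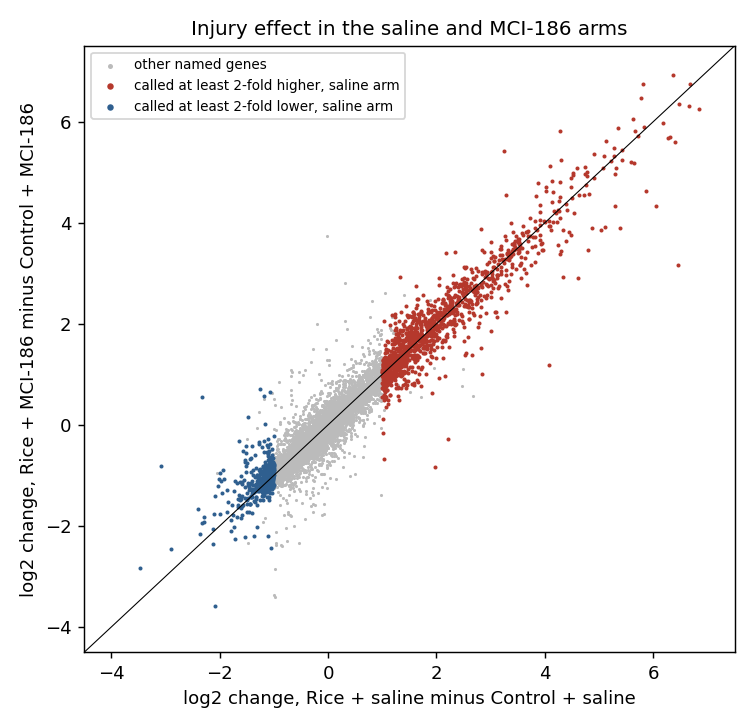
Log2 change with injury in saline pups (horizontal) against that in MCI-186 pups (vertical) for the named genes tested, with genes called at least 2-fold higher (red) or lower (blue) in saline pups and the line of equal change. Of the 1664 genes called at 2-fold or more in saline pups, 1654 had the same sign in both arms.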

How the data were processed

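Cerebral cortex RNA of 12 pups (4 groups of 3) was measured on single-colour Agilent 4x44K rat arrays, 1 array per pup, with 500 ng of RNA labelled with cyanine 3. Per the file headers, the deposited intensity values come from Agilent Feature Extraction 9.5.3.1, whose processed signal is background-subtracted. The deposited value table holds log2 values whose column medians were -0.12 to 0.12 and which correlated with the recomputed values at 0.965 to 0.994. No label or header says how it was centred, and it served as an alternative.

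Control spots and outlier spots were left out, spots of a probe were averaged, and each signal was divided by its array's 75th percentile, floored at 0.005 and put on the log2 scale. Probes well above background on all 3 arrays of either saline group were kept, and the brightest probe stood for a gene. Probes were named through RefSeq accessions (12169 of 12977 curated accessions matched), and 16444 of 25684 tested features stayed unnamed. The 4 group means were fitted on all 12 arrays with limma 3.58.1 (R 4.3.3, lmFit and eBayes), with Benjamini-Hochberg adjustment over all features and a threshold of 0.05. The brightest probe was chosen by its mean over all 12 arrays. The MCI-186 arrays thus add to the estimate of spread and to the choice of probe, but not otherwise to the saline log2 change. In simulated data built on these features, 100 features were given a true log2 change of 1 and 100 a change of 2. Of these, 69.0% and 94.0% were called, with 0.024% of unchanged features. In the real data 12818 of 25684 features were called, a far larger share, so these rates need not hold there.

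The 106 families and marker lists are symbol patterns, some of which take in a few unrelated genes. Members, families and tests were chosen with earlier results of these data known. Named genes follow a rule: the 12 largest rises and falls, up to 4 members per family in its main direction and 2 in the other by p, the 12 brightest called genes, genes detected in 1 group only, the 8 most variable, neighbour runs, markers and genes that differ between arms. The number of arrays limits the precision. Same-numbered samples did not deviate together (correlations of -0.16, -0.06 and -0.22), so numbers do not pair the pups. The mean signal column was not used here, and normexp ran on the median signal (offset 50). Alternatives were that correction, quantile and median scaling, 3 filters, a floor of 0.02, averaged probes, the saline arrays alone, the value table, a replicate block and leaving out each array. Some results are not reported here.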

Additional observations from a re-analysis of the deposited data

Results flagged for a closer look

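The injury effect differed between saline and MCI-186 pups in limma's test of that difference for 2 named genes. One of them, Asb5, an ankyrin repeat gene of muscle, had log2 signals of -5.36, -5.55 and -5.43 in Rice + saline pups, against -4.29, -4.49 and -4.84 in Control + saline pups. Its change was -0.90 ± 0.16 in saline pups and 0.85 ± 0.16 in MCI-186 pups, a difference of -1.76 ± 0.23 (limma adjusted p = 0.0462). The signals of Asb5 are dim, and under normexp background correction 0 named genes passed this test. The arms were hybridised on different slides, and the part of the slide in this difference was not tested.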

How the results depend on the processing

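Of 633 called genes named by rule, 581 kept their call and direction under all 17 alternatives and 590 under all but those that left out an array, and 0 results reversed. Calls higher numbered 2303 and ranged from 2029 to 2465 over the other settings and from 1894 to 2318 with 1 array left out. Calls lower numbered 2828 and ranged from 2280 to 3401, and from 2198 to 2772 with 1 array left out. The replicate block gave 2231 higher and 2585 lower, and 1 gene that differed between the arms, though the numbers do not pair the pups. The 419 genes at least 2-fold lower became 250 under normexp and 232 to 583 with 1 array left out, the lowest without Rice + saline pup 3. Genes at least 2-fold higher, 1245, ranged from 841 under normexp to 1296 without the filter, and from 1072 to 1367 with 1 array left out. The 2 genes that differed between the arms became 0 under normexp, 1 without the filter, 1 with a floor of 0.02, 1 with the authors' value table and 1 to 4 with 1 array left out: 1 without Rice + saline pup 1 or 2 or Control + saline pup 1 or 2, and 4 without Control + saline pup 3. The median change of all genes, -0.09, was -0.06 under quantile normalization, -0.18 with median scaling and -0.02 without the filter. The causes of these shifts were not tested. All levels are relative to the array's own 75th percentile, so a shift shared by all genes cannot be seen, and signals near background bound a fold only from below.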
